A study of Rattus norvegicus with 16 samples.

Results

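Described here are 10 genes of the unfolded protein response in rat liver: Edem1, Herpud1, Hspa5, Dnajb9, Sdf2l1, Pdia4, Creld2, Xbp1, Atf4 and Ddit3. They were chosen by symbol as known endoplasmic reticulum (ER) stress genes. Edem1 was added for its low level in adrenalectomized rats under ozone, so those values of Edem1 chose it and are given without a test. All 10 were found among the 22587 rows of the deposited table, and all 10 passed the filter on low values that left 12791 genes for testing. Liver mRNA was sequenced from male rats aged 13 weeks, of a strain the labels spell Wistar-Wyoto. The 4 groups, each of 4 libraries, were ADREX ozone (both adrenal glands removed, ozone at 0.8 ppm for 4 hours), SHAM ozone (sham-operated, the same ozone), ADREX air (both adrenal glands removed, air) and SHAM air (sham-operated, air for 4 hours). The study asked how adrenal stress hormones act on the liver after ozone, an irritant gas. No hormone replacement is named in the labels, and the surgery takes away the adrenal medulla as well as the cortex. The labels' treatment field gives ozone for the ADREX libraries titled air too, so the groups were taken from the titles, which fit the series' stated design.

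The unfolded protein response is the set of signals that a cell starts when unfolded proteins collect in the ER. The sensors IRE1, PERK and ATF6 lead to spliced XBP1, to more ATF4 protein and to a cleaved ATF6 fragment, and these transcription factors turn on chaperones, folding enzymes and the machinery of ER-associated degradation. Hepatocytes secrete most plasma proteins and carry a large ER. Several steps of the response are not seen in the levels measured here, among them Xbp1 splicing, translation of Atf4 and the phosphorylation of the sensors.

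Values are normalized counts, which the authors obtained by dividing each library's reads by its size factor. The recovered totals were 8372891 to 14096246 reads per library. Gene lengths are not used, so levels are compared between groups for 1 gene at a time, never between genes. Hepatocyte markers were all present, with a summed level of 125925 to 233343 reads per 1000000 (RPM) over 12 of 12 genes. Markers of neurons and oligodendrocytes, cells of nervous tissue, were also present, 25 of 25. Their summed level was 893 to 5056 RPM in ADREX ozone, 82.7 to 3068 RPM in SHAM ozone, 293 to 1270 RPM in ADREX air, and 48.7 to 900.0 RPM in the SHAM libraries kept in air, and none was at 0 in all libraries of a group. The 3 highest libraries were ADREX ozone 82, SHAM ozone 18 and ADREX ozone 81. Some other marker sums also differed between the surgeries, not always under both exposures. Lymphocyte markers summed to 5.05 to 10.6 RPM in ADREX ozone, against 2.20 to 3.48 RPM in SHAM ozone, and to 4.98 to 9.24 RPM in ADREX air, against 3.43 to 4.4 RPM in SHAM air. Cholangiocyte markers summed to 16.2 to 23.9 RPM in ADREX air, against 5.14 to 10.6 RPM in SHAM air. Under ozone they overlapped, at 14.4 to 20.5 RPM in ADREX and 11.6 to 19.6 RPM in SHAM. Plasma cell markers summed to 13.3 to 19.9 RPM in ADREX ozone, against 6.69 to 9.54 RPM in SHAM ozone. In air they overlapped, at 9.71 to 27.7 RPM in ADREX and 6.93 to 14.2 RPM in SHAM. Hepatocyte markers averaged 156878 ± 15830 RPM in ADREX air and 200161 ± 31554 RPM in SHAM air. Under ozone they averaged 167260 ± 46118 RPM in ADREX and 174263 ± 8876 RPM in SHAM (SD, n = 4 each). Kupffer cell markers averaged 1109 ± 331 RPM in ADREX ozone and 732 ± 118 RPM in SHAM ozone, and 1076 ± 373 RPM in ADREX air and 701 ± 77.1 RPM in SHAM air (SD, n = 4 each). Their part in the ADREX results was not tested. In bulk tissue, fewer cells of a type and less RNA per cell cannot be told apart. Nothing in the labels says more than that the libraries are separate samples, so p-values measure the spread between these samples.

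Edem1 encodes a mannosidase-like protein of the ER that hands misfolded glycoproteins over to degradation. Edem1 was highest in SHAM ozone, lower in SHAM air, and lowest in both ADREX groups. It stood at 3973, 782.4, 1650 and 3103 normalized counts in ADREX ozone libraries 81 to 84, against 36677, 22463, 23392 and 35898 in SHAM ozone libraries 17 to 20. It stood at 2007, 1689, 4091 and 2273 in ADREX air libraries 65 to 68, against 8401, 8408, 4619 and 10535 in SHAM air libraries 1 to 4. Each ADREX library was below each SHAM library under the same exposure, each SHAM ozone library was above each SHAM air library, and the ADREX groups overlapped. Between 747 and 24341 reads lay behind these values. The highest library was 46.9 times the lowest, while that ratio was 2.12 to 6.02 in the other 9 genes. The lowest was ADREX ozone 82 and the highest SHAM ozone 17, groups whose values chose Edem1, so the size of this ratio follows from the choice.

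As group means, Edem1 was 2377 ± 1431 in ADREX ozone and 29608 ± 7729 in SHAM ozone (SD, n = 4 each), a mean 12.5 times lower in ADREX. The log2 change for ADREX against SHAM under ozone was −3.85 ± 0.42 (SE), the 12th lowest of 12791. The choice of Edem1 is read as resting on this contrast, so it has no p. In ADREX, Edem1 averaged 2377 in ozone and 2515 ± 1077 in air, with a log2 change of −0.25 ± 0.42 and a 95% interval of −1.13 to 0.64. The ozone effect in ADREX minus that in SHAM was −2.16 ± 0.59. Both of these values also rest on the ADREX ozone libraries and are given as a description.

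Edem1 has a p in the 2 contrasts that hold no ADREX ozone library. Of these, only ADREX against SHAM in air compares groups outside the contrast read as choosing Edem1. Edem1 rose with ozone in SHAM, with means of 29608 in ozone and 7991 ± 2462 in air (SD, n = 4), 3.71 times higher in ozone. The log2 change was 1.91 ± 0.42 (limma, adjusted p = 0.0311). This test shares the SHAM ozone libraries with the contrast that chose Edem1, so it is not independent of the choice. Its p is given as a description. The adjusted p was 0.0526, 0.0851 and 0.0505 without SHAM air 1, 2 or 4, and 0.12 and 0.115 without SHAM ozone 17 or 20. The log2 change was 2.30 in a fit that held the neural marker sum as a covariate. It was 2.03 when ADREX ozone 81 and 82 and SHAM ozone 18 were left out.

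In air, Edem1 fell with adrenalectomy, with means of 2515 in ADREX and 7991 in SHAM, 3.18 times lower in ADREX. The log2 change was −1.69 ± 0.42 (limma, adjusted p = 0.0345). With the neural marker sum as a covariate it was −1.27, with an adjusted p of 0.123. The adjusted p was 0.0735, 0.0986 and 0.117 without SHAM air 1, 2 or 4, and 0.0931, 0.119 and 0.0846 without ADREX air 65, 66 or 68. The sign was negative in each of these fits.

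**Figure D1:**
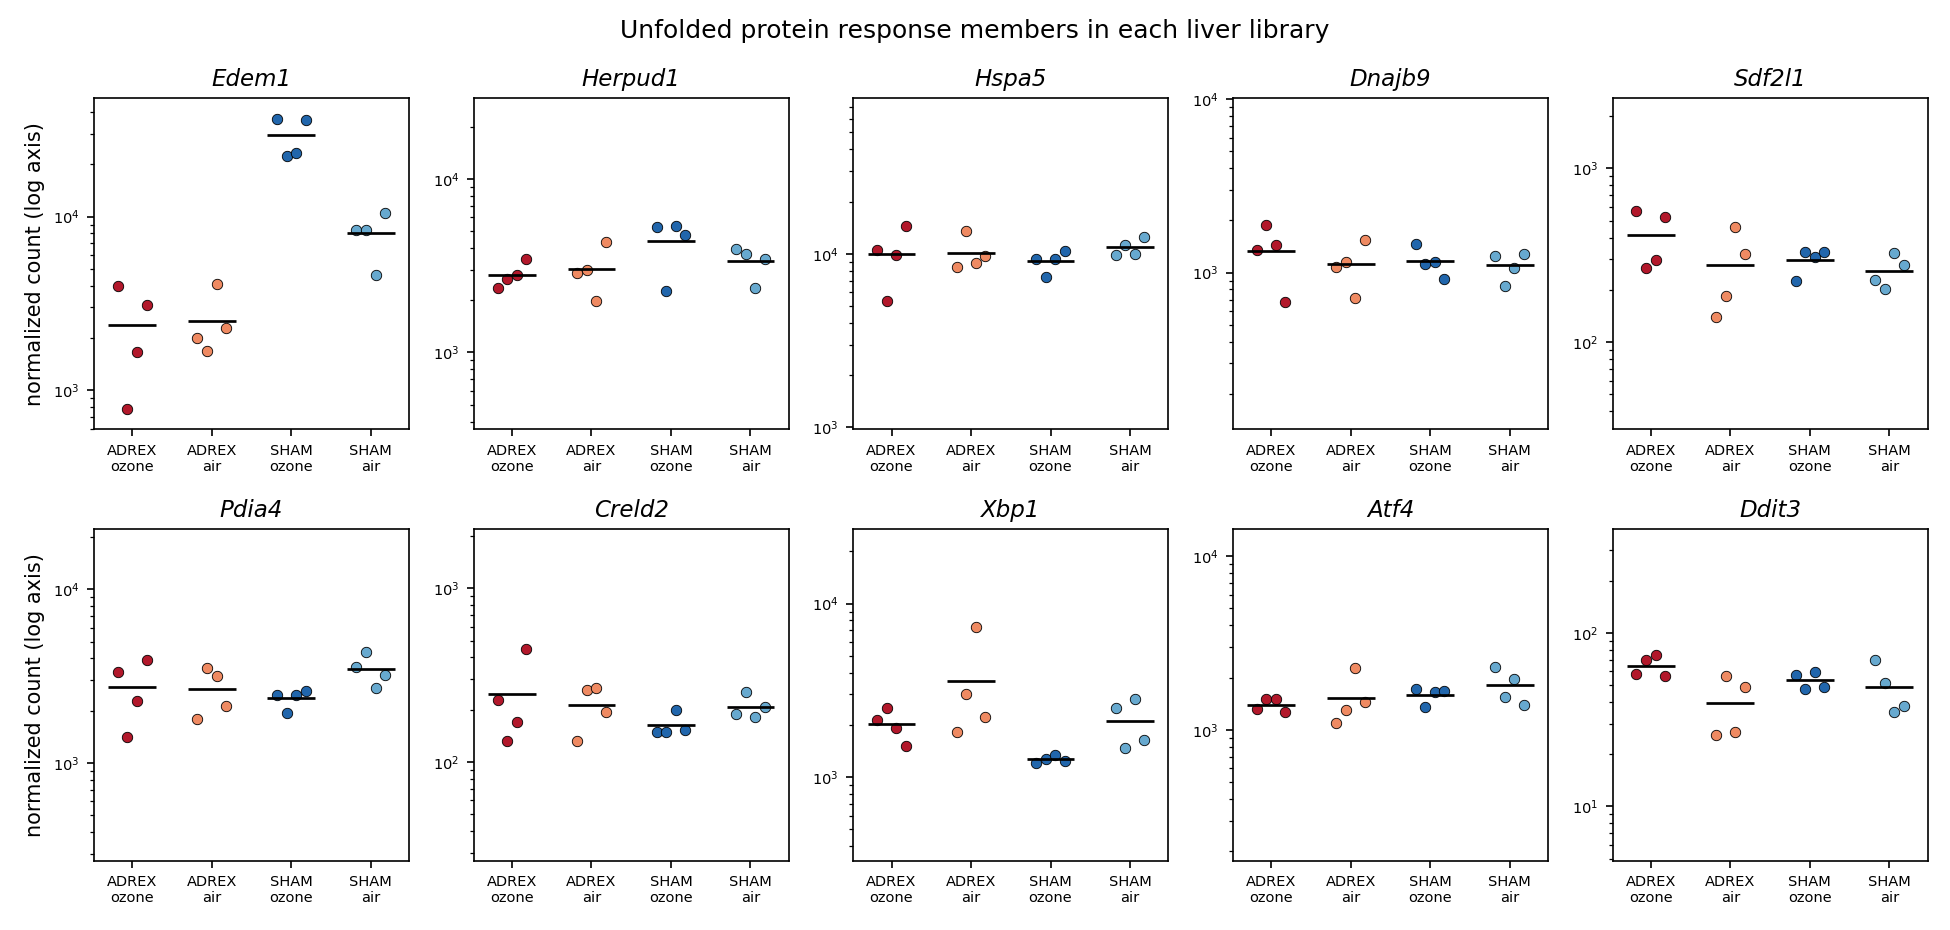
Normalized counts of the 10 genes on a log axis, 1 point per library and a bar at each group's mean (n = 4), with each panel's axis drawn around its own gene over an equal number of log units. Edem1 means were 2377 in ADREX ozone, 2515 in ADREX air, 29608 in SHAM ozone and 7991 in SHAM air, while the groups of most other genes overlap.

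The 300 bases around the Edem1 start in RefSeq (build GRCr8, chr4:143353425-143353724, plus strand, 250 before and 50 after the start) are printed because Edem1 was the only member called. It was called in 2 comparisons, and that for ozone in SHAM shares the SHAM ozone libraries with the contrast that chose Edem1. All 10 genes matched a RefSeq promoter. The table of promoters is on GRCr8 and the deposited counts on rn6, so these coordinates belong to the promoters only. No letters are in capitals, since none of the 4 motifs searched for is in this window.
Edem1 promoter: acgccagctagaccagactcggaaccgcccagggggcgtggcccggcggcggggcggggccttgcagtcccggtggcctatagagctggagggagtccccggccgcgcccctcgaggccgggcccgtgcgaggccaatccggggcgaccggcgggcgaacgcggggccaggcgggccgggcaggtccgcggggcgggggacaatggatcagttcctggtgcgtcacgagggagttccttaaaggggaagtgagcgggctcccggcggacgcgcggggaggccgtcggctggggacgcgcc

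The motifs, each searched on both strands, were the ER stress response element ERSE (CCAAT, 9 bases of any kind, then CCACG), ERSE-II (ATTGG, any base, then CCACG), the core of the unfolded protein response element (TGACGTGG) and the ATF4 composite element (TGATGNAA). ERSE was in 3 of the 10 promoters, those of Hspa5, Xbp1 and Creld2, and in 22 of all 33469 promoters of this length (0.0657%). ERSE-II was in that of Herpud1 and in 17 of all (0.0508%). TGACGTGG was in none of the 10 and in 199 of all (0.595%). TGATGNAA was in that of Herpud1, on the opposite strand, and in 1332 of all (3.98%). Among the 10070 promoters of genes tested, the shares were 0.149% for ERSE, 0.0894% for ERSE-II, 0.834% for TGACGTGG and 1.94% for TGATGNAA. All of these are matches of letters, and a window without a match says only that these letters are not in it. The stretches that hold the matches are shown because they set these 4 genes beside Edem1. Each has 60 bases, is written along the gene's strand, and has the match in capitals.
Hspa5, ERSE, chr3:38452952-38453011, plus strand: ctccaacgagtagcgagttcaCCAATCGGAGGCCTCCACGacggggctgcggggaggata
Xbp1, ERSE, chr14:84604537-84604596, plus strand: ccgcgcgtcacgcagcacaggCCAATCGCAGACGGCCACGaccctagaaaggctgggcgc
Creld2, ERSE read on the opposite strand, chr7:121789218-121789277, plus strand: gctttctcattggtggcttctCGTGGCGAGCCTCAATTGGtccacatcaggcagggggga
Herpud1, ERSE-II, chr19:10614797-10614856, minus strand: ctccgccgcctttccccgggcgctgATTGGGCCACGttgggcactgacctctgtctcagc
Herpud1, ATF4 composite element read on the opposite strand, chr19:10614858-10614917, minus strand: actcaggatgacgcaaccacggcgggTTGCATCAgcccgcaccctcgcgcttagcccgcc

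None of the other 9 genes passed the test in any of the 5 comparisons. Limma, edgeR and DESeq2 each called 0 of 9 in each. At an unadjusted p under 0.05, limma gave 1 of 9 (Ddit3) for ozone against air in ADREX and 0 of 9 in each of the others. That cut was passed by 17.8% of all genes for ozone in ADREX, 18.4% for ozone in SHAM, 20.2% for ADREX in air, 31.2% for ADREX under ozone and 12.9% for the difference. Among all 12791 genes, limma called 0.125% for ozone against air in ADREX, 1.58% for ozone against air in SHAM, 3.53% for ADREX against SHAM in air, 12.5% for ADREX against SHAM under ozone and 0.109% for the difference of the ozone effects. With so few genes called in most comparisons, 0 of 9 is near the background. With Edem1, 1 of 10 members was called for ozone in SHAM and 1 of 10 for ADREX in air, in each case Edem1 itself. The call for ozone in SHAM shares the SHAM ozone libraries with the contrast that chose Edem1. Groups without overlap were counted as well, leaving out Edem1 where ADREX ozone took part. They were found in 0 of 9 members for ozone in ADREX (9.97% of all genes tested) and 3 of 10 for ozone in SHAM (11.1%). Those 3 were Edem1, Pdia4 and Xbp1. SHAM ozone took part in the contrast that chose Edem1, so the separation of Edem1 there follows in part from the choice. For ADREX in air the count was 1 of 10, Edem1 (9.26%), and for ADREX under ozone 1 of 9, Xbp1 (20.5%).

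The median log2 change of the 9 was −0.01 for ozone in ADREX, −0.15 for ozone in SHAM, −0.12 for ADREX against SHAM in air and 0.12 for ADREX against SHAM under ozone. The medians of all genes tested were 0.06, 0.01, 0.04 and 0.11 in the same order. Under ozone, limma called 772 genes higher and 829 lower in ADREX. With TMM scaling the median of all genes there was 0.01 and the counts were 538 higher and 1132 lower. The comparisons share groups, so their values are not independent of each other.

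**Figure D2:**
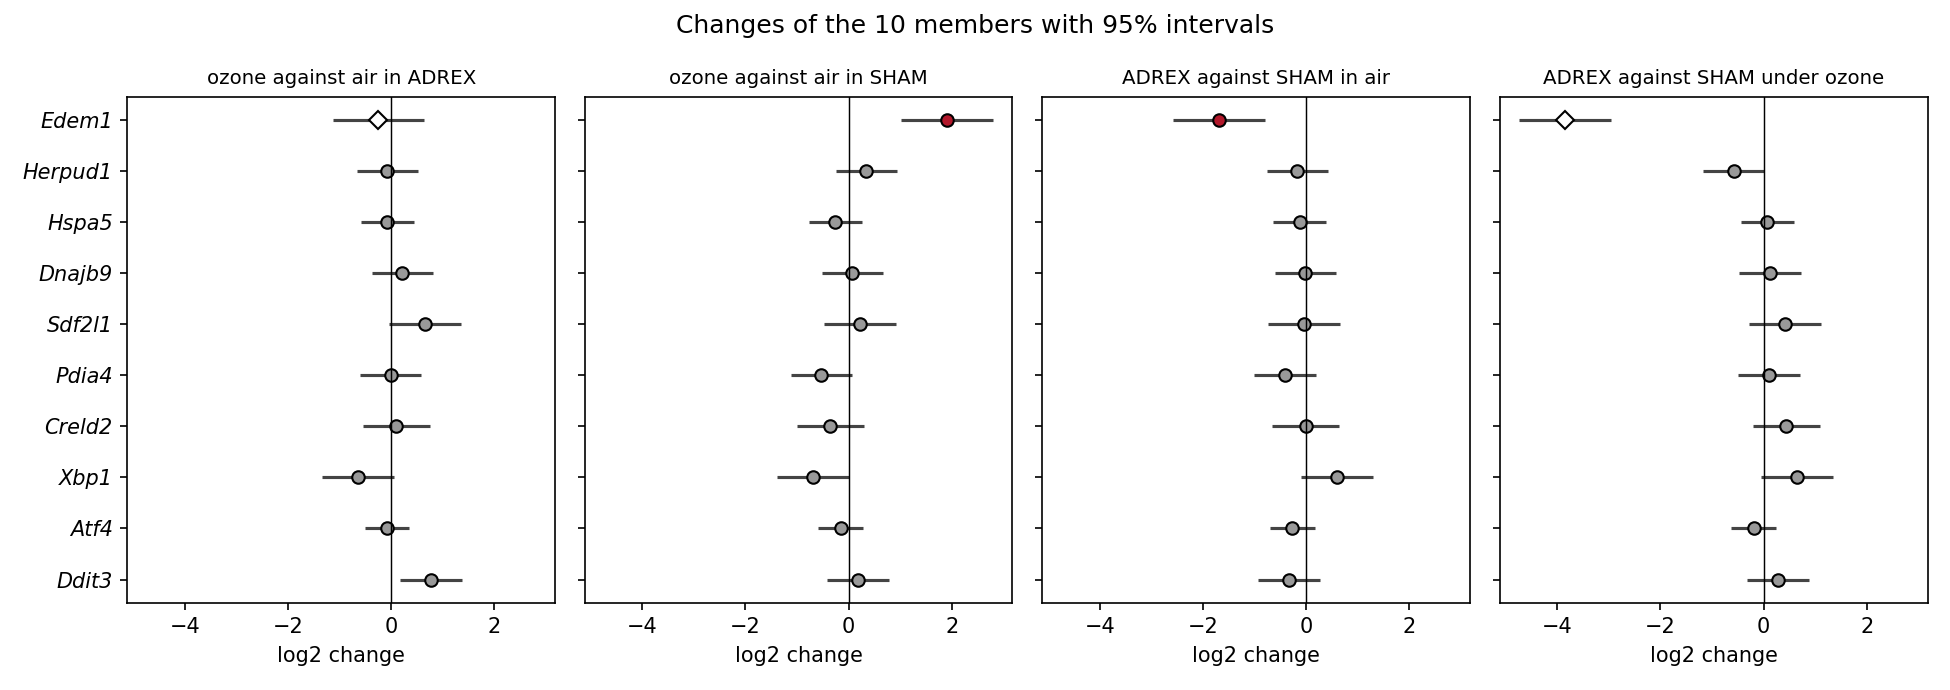
Log2 changes (x axis) of the 10 genes with 95% intervals from limma in 4 comparisons, with red points for adjusted p under 0.05, grey points for the rest and white diamonds for the Edem1 values given without a test. Edem1 stands at 1.91 for ozone in SHAM, −1.69 for ADREX in air and −3.85 for ADREX under ozone, and the points of the other 9 genes lie between −0.68 and 0.77. The red Edem1 point for ozone in SHAM shares the SHAM ozone libraries with the contrast that chose Edem1.

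Herpud1 encodes an ER membrane protein that helps assemble the degradation complex. Its values were 2343, 2666, 2789 and 3444 in ADREX ozone libraries 81 to 84, against 5266, 2250, 5359 and 4734 in SHAM ozone libraries 17 to 20. It was 2861, 2979, 1972 and 4336 in ADREX air libraries 65 to 68 and 3955, 3682, 2339 and 3439 in SHAM air libraries 1 to 4. SHAM ozone 18, the second highest library in neural markers, was below all 4 ADREX ozone libraries, and the other 3 were above all 4. The log2 change for ADREX against SHAM under ozone was −0.58 ± 0.28 (limma, adjusted p = 0.166). Without SHAM ozone 18 it was −0.88 (adjusted p = 0.028), and with array weights −0.77 (adjusted p = 0.0233). Those fits called 13.2% and 26.7% of all genes. With the neural marker sum as a covariate the log2 change of Herpud1 was −0.34 (adjusted p = 0.474). Without SHAM ozone 18 and ADREX ozone 81 and 82 it was −0.72 (adjusted p = 0.18).

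Hspa5 encodes BiP, the main Hsp70 chaperone of the ER and the usual marker of ER stress. It was 10539, 5351, 9866 and 14379 in ADREX ozone libraries 81 to 84, against 9328, 7387, 9283 and 10355 in SHAM ozone libraries 17 to 20. Air libraries held 8436, 13450, 8886 and 9690 in ADREX 65 to 68, against 9889, 11198, 9955 and 12425 in SHAM air libraries 1 to 4. Every pair of groups overlapped. The group means were 10034 ± 3701 in ADREX ozone, 9088 ± 1237 in SHAM ozone, 10116 ± 2283 in ADREX air, with 10867 ± 1201 in SHAM air (SD, n = 4 each). The 95% interval of its log2 change for ozone in SHAM, −0.78 to 0.25, lay below the Edem1 interval, 1.03 to 2.80. For ADREX against SHAM in air the Hspa5 interval was −0.64 to 0.39, and that of Edem1 was −2.58 to −0.80. The Edem1 interval for ozone in SHAM rests on the SHAM ozone libraries, which took part in the contrast that chose Edem1. No test of the difference between the 2 genes was run.

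Pdia4, a protein disulfide isomerase, was the chaperone whose groups separated for ozone in SHAM. It was 2478, 1949, 2474 and 2594 in SHAM ozone libraries 17 to 20, against 3585, 4334, 2708 and 3197 in SHAM air libraries 1 to 4. All 4 SHAM ozone values were below all 4 SHAM air values, and the mean in ozone was 0.687 times that in air. The log2 change was −0.53 ± 0.28 (limma, adjusted p = 0.327). In ADREX, Pdia4 ranged over 1404 to 3895 in ozone and 1801 to 3542 in air, and the ozone effect in ADREX minus that in SHAM was 0.52 ± 0.40 (limma, adjusted p = 0.589).

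Sdf2l1 encodes a partner of the ER chaperone complex. It was 571.8, 266.1, 295.1 and 523.9 in ADREX ozone libraries 81 to 84, against 140.0, 184.3, 460.2 and 320.4 in ADREX air libraries 65 to 68. The groups overlapped, since ADREX air 67 and 68 were both above ADREX ozone 82 and 83. The log2 change was 0.65 ± 0.33 (limma, adjusted p = 0.313). In SHAM it ranged over 223.5 to 330.4 in ozone and 203.0 to 323.8 in air.

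Creld2 encodes an ER folding factor and Dnajb9 encodes ERdj4, a BiP cochaperone that holds IRE1 inactive. Creld2 was 228.7, 132.0, 170.0 and 449.0 in ADREX ozone libraries 81 to 84, against 148.0, 148.0, 200.2 and 153.4 in SHAM ozone libraries 17 to 20. ADREX ozone 84 had the highest Creld2 of all 16 libraries. In air, Creld2 ranged over 131.8 to 265.1 in ADREX and 182.5 to 253.4 in SHAM. Dnajb9 ranged over 675.0 to 1880 in ADREX ozone, 918.8 to 1465 in SHAM ozone, 716.3 to 1532 in ADREX air and 839.6 to 1280 in SHAM air. No pair of groups compared separated for Creld2 or Dnajb9. In the rat annotation of GRCr8, Creld2 overlaps Alg12, Dnajb9 overlaps a long noncoding RNA (LOC120103526) and Herpud1 overlaps LOC102553339. Whether the counting used strand is not stated, so reads of such neighbours may not be told apart.

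Xbp1 encodes the transcription factor made active by IRE1, and it is also needed for lipid synthesis in the liver. It was 2127, 2509, 1910 and 1510 in ADREX ozone libraries 81 to 84, against 1214, 1281, 1347 and 1240 in SHAM ozone libraries 17 to 20. It was 1821, 3029, 7310 and 2229 in ADREX air libraries 65 to 68 and 2515, 1481, 2813 and 1641 in SHAM air libraries 1 to 4. SHAM ozone was the lowest and tightest group, below every library of ADREX ozone and of SHAM air, while ADREX air 67 stood far above every other library.

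The mean Xbp1 in ozone was 0.601 times that in air in SHAM, with a log2 change of −0.68 ± 0.33 (limma, adjusted p = 0.283). Under ozone the mean in ADREX was 1.59 times that in SHAM, with a log2 change of 0.64 ± 0.33 (limma, adjusted p = 0.196). In a limma fit to the 2 ozone groups alone, the adjusted p of Xbp1 was 0.0349, and that fit called 11.4% of all genes. With ADREX ozone 81 and 82 and SHAM ozone 18 left out, the log2 change was 0.42 (adjusted p = 0.612). For ADREX against SHAM in air the log2 change was 0.60 ± 0.33 (limma, adjusted p = 0.316). For ozone in ADREX it was −0.64 ± 0.33 (limma, adjusted p = 0.327). Neither pair of groups separated, and without ADREX air 67 the log2 change was 0.18 in air and −0.22 for ozone in ADREX.

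Atf4 and Ddit3 belong to the PERK branch. Atf4 encodes a transcription factor of the integrated stress response and Ddit3 encodes CHOP, which is linked to cell death under lasting ER stress. Ddit3 was 58.3, 70.2, 74.6 and 56.1 in ADREX ozone libraries 81 to 84, against 25.9, 56.1, 26.8 and 48.9 in ADREX air libraries 65 to 68. In SHAM it was 57.4, 47.7, 59.9 and 48.7 in ozone libraries 17 to 20, against 69.9, 51.6, 35.0 and 38.1 in air libraries 1 to 4. ADREX ozone lay at or above the top of ADREX air, with the lowest ozone library level with the highest air one at 56.1, and the SHAM groups overlapped.

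The log2 change of Ddit3 for ozone in ADREX was 0.77 ± 0.28 (limma, unadjusted p = 0.0145, adjusted p = 0.191), and the ozone effect in ADREX minus that in SHAM was 0.60 ± 0.40 (limma, adjusted p = 0.535). Its 18 to 68 reads per library limit the precision. Ddit3 overlaps Mars1 and LOC134479709 in the annotation. Atf4 ranged over 1272 to 1501 in ADREX ozone, 1344 to 1724 in SHAM ozone, 1092 to 2265 in ADREX air and 1387 to 2313 in SHAM air, and all pairs of groups overlapped.

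Single libraries were low or high for several genes at once. ADREX air 65 was the lowest of its group for 7 of the 10 genes and SHAM ozone 18 for 6. ADREX ozone 82, the library with the highest neural marker sum, was the lowest of its group for Edem1, Hspa5, Sdf2l1, Pdia4 and Creld2 and the highest for Dnajb9, Xbp1 and Atf4. ADREX ozone 84 was the highest for Herpud1, Hspa5, Pdia4 and Creld2. The part of neural RNA in these levels was not tested.

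The pathway was read more widely with 119 other symbols in 5 lists, of which 110 were in the table and 108 tested. Some of the 119 are old and new names of the same gene. The lists were written with earlier results of these data known. For ozone against air, limma called 0 of 108 in ADREX and 0 of 108 in SHAM. At an unadjusted p under 0.05 there were 18 in ADREX (16.7%, against 17.8% of all genes) and 13 in SHAM (12.0%, against 18.4%). The lists were not compared by a test. In ADREX the cut was passed by 5 of 14 sensors and signal processing genes (35.7%) and 6 of 16 targets of the ATF4 branch (37.5%). It was passed by 0 of 25 chaperones, 2 of 23 degradation genes (8.70%) and 5 of 30 translocation and secretory genes (16.7%). In SHAM the lists ranged from 0 to 18.8%. EdgeR called 0 of 108 in ADREX and 0 of 108 in SHAM. DESeq2 called 7 in ADREX (6.48%, against 4.46% of all genes) and 2 in SHAM (1.85%, against 4.19%). For the difference of the ozone effects limma called 0, with 14 at an unadjusted p under 0.05 (13.0%, against 12.9% of all genes), and edgeR and DESeq2 called 0.

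Among 25 chaperones and folding enzymes tested, 0 were called by limma in any comparison. At an unadjusted p under 0.05 there were 2 of 25 in the air comparison of ADREX with SHAM (20.2% of all genes), 7 of 25 in the ozone comparison (31.2% of all genes) and 0 in the others. The list's median log2 change was 0.15 for ozone against air in ADREX and −0.08 for ozone against air in SHAM. Set against SHAM, the median in ADREX was −0.15 in air and −0.03 under ozone. P4hb, a protein disulfide isomerase, averaged 24649 ± 6031 in ADREX ozone and 21420 ± 2203 in SHAM ozone (SD, n = 4 each). Calr, the glycoprotein chaperone calreticulin, averaged 9117 ± 3726 in ADREX ozone and 9240 ± 1226 in SHAM ozone.

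For ADREX against SHAM in air, 2 of 108 were called, both lower in ADREX (1.85%, against 3.53% of all genes). Atf5, a transcription factor downstream of ATF4, averaged 1388 ± 350.0 in ADREX and 2652 ± 569 in SHAM, with a log2 change of −0.95 (limma, adjusted p = 0.0345). Derl2, a channel protein of degradation, averaged 768.0 ± 114 in ADREX and 1279 ± 206 in SHAM, with a log2 change of −0.73 (limma, adjusted p = 0.0331). Atf5 was not called without SHAM air 1 or 2 or ADREX air 65 or 66 (adjusted p = 0.0865, 0.0922, 0.109 and 0.0966). Derl2 was not called without SHAM air 1, 2 or 4 or ADREX air 65, 66 or 68 (adjusted p = 0.0733, 0.108, 0.101, 0.088, 0.0612 and 0.105). The log2 changes in those fits were −0.94 to −0.76 for Atf5 and −0.78 to −0.64 for Derl2. The count was 7 without SHAM air 3 (6.48%, against 7.85% of all genes) and 5 without ADREX air 67 (4.63%, against 6.44%). With the neural marker sum as a covariate neither was called, with log2 changes of −0.86 for Atf5 (adjusted p = 0.108) and −0.52 for Derl2 (adjusted p = 0.128).

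Under ozone, 3 of 108 were higher and 9 lower in ADREX than in SHAM (11.1%, against 12.5% of all genes). Of the 14 sensors and signal processing genes tested, 2 were called, the sensors Atf6 and Ern1, both lower (14.3%, against 12.5% of all genes). At an unadjusted limma p under 0.05 there were 3 of 14 (21.4%, against 31.2% of all genes). Eif2ak3, which encodes the sensor PERK, was not called. Atf6 averaged 872 ± 73.8 in ADREX and 1339 ± 197 in SHAM, a log2 change of −0.61 (limma, adjusted p = 0.0145). Ern1, which encodes IRE1, averaged 791 ± 270 in ADREX and 1375 ± 202 in SHAM, a log2 change of −0.85 (limma, adjusted p = 0.0196). In air, Ern1 averaged 1177 ± 210 in ADREX and 1778 ± 241 in SHAM.

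Of the 23 degradation genes tested, 3 fell under ozone and 0 rose (13.0%, against 12.5% of all genes). Edem3, a relative of Edem1 with mannosidase activity, averaged 296 ± 99.1 in ADREX and 552 ± 48.3 in SHAM, a log2 change of −0.95 (limma, adjusted p = 0.0298). Edem2, the other relative, averaged 785 ± 111 in ADREX and 618 ± 50.4 in SHAM and was not called in any comparison (limma, adjusted p = 0.194 under ozone). Nploc4, an adaptor of the p97 segregase, and Ube2g2, a ubiquitin-conjugating enzyme, had log2 changes of −0.82 and −1.01 (limma, adjusted p = 0.00772 and 0.0467). Edem3 in SHAM averaged 552 in ozone and 593 ± 166 in air, and its log2 change there was −0.06 (limma, adjusted p = 0.93).

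The rest of the calls under ozone were split in direction. Sec11a and Sec11c, catalytic subunits of the signal peptidase, rose with log2 changes of 0.87 and 0.80 (limma, adjusted p = 0.00686 and 0.0245). Sec24d, a coat protein of ER export vesicles, and Lman1, a cargo receptor for glycoproteins, fell with log2 changes of −1.19 and −0.65 (limma, adjusted p = 0.00628 and 0.0358), and Sec31a fell too. Of the ATF4 targets, Aldh18a1, an enzyme of proline synthesis, rose by 1.37 (limma, adjusted p = 0.039) and Cebpg, a partner of ATF4 on DNA, had −0.49 (limma, adjusted p = 0.0209).

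The count of 12 moved with the libraries. It was 0 when the 3 libraries with the most neural marker RNA were left out (0%, against 3.74% of all genes). The count over all genes was 479 there, against 1601 with all libraries. The log2 changes of the 12 genes kept their sign there, among them −1.07 for Sec24d, −0.82 for Nploc4, −1.05 for Edem3 and 1.47 for Aldh18a1. The 12 were called in a fit that held the remaining libraries too, so a kept sign follows largely from that choice. The count was 5 when the neural marker sum was a covariate (4.63%, against 8.55% of all genes). Without SHAM ozone 17 it was 5 (4.63%, against 6.65% of all genes) and without SHAM ozone 20 it was 4 (3.70%, against 6.15%). Without ADREX ozone 83 it was 7 (6.48%, against 8.81%). All genes called in those fits were 850, 787 and 1127. EdgeR called 15 (13.9%, against 12.4% of all genes), DESeq2 20 (18.5%, against 17.1%) and array weights 24 (22.2%, against 26.7%). The neural marker sum had a median of 1497 RPM in ADREX ozone and 457 RPM in SHAM ozone, and its part in these calls was not tested beyond those fits.

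**Figure D3:**
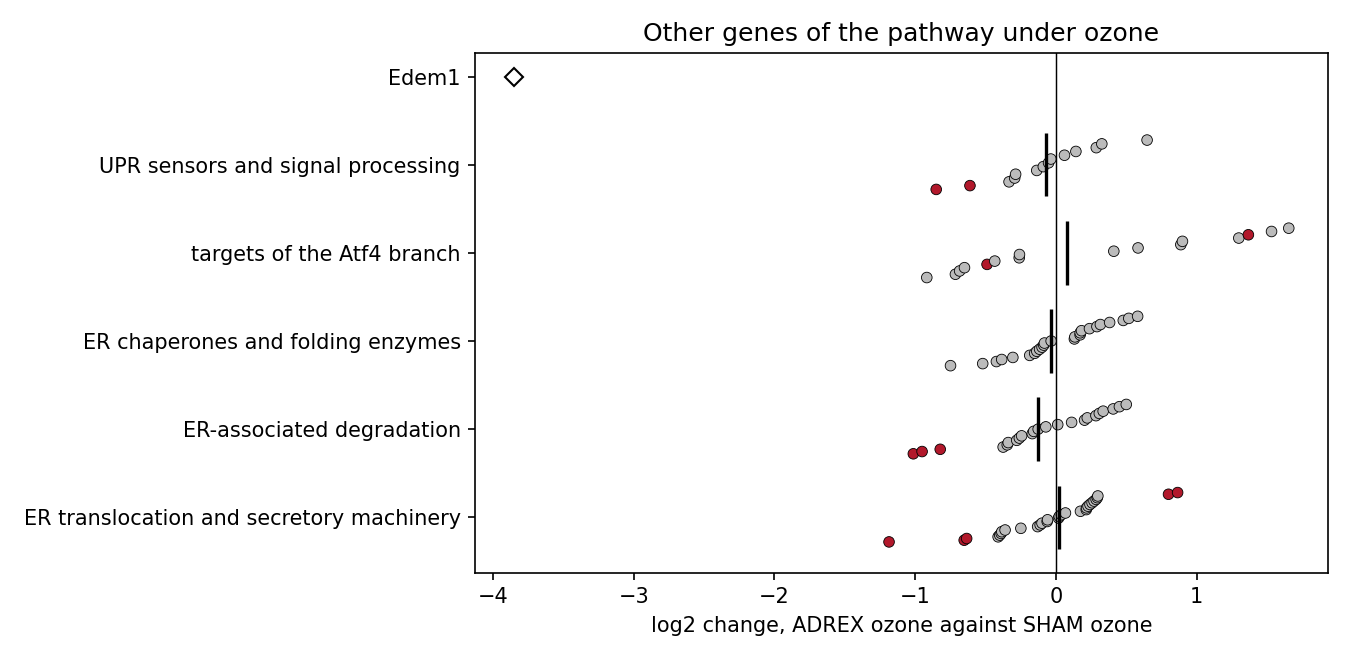
Log2 change of each of 108 pathway genes for ADREX ozone against SHAM ozone (x axis), by list, with red for limma adjusted p under 0.05, a black bar at each list's median and Edem1 as a white diamond without a test. Edem1 stands at −3.85, and the called pathway genes lie between −1.19 and 1.37.

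The genes whose levels over the 16 libraries were most like those of Edem1 were found by the root mean square difference of standardized log2 levels, over 11399 genes with named symbols. They were Pcyt1a (0.272), which controls phosphatidylcholine synthesis, Vangl1 (0.306), a planar polarity protein, Tdo2 (0.31), the liver enzyme that starts tryptophan breakdown, Ethe1 (0.313), a mitochondrial sulfide-oxidizing enzyme, and Fam210b (0.334), a mitochondrial protein. A value of 0 would be an identical pattern. Tdo2 averaged 13160 ± 4071 in ADREX ozone, 50839 ± 7711 in SHAM ozone, 12183 ± 4135 in ADREX air, with 23010 ± 7897 in SHAM air (SD, n = 4 each). Pcyt1a averaged 556 ± 143 in ADREX ozone, 1595 ± 299 in SHAM ozone, 579 ± 112 in ADREX air, with 1159 ± 340 in SHAM air. All 5 had their highest mean in SHAM ozone and their second highest in SHAM air, as Edem1 did. They were chosen for likeness to Edem1 over these same libraries, so a shared order of groups follows from the choice.

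The nearest of the other 9 members was Herpud1, at 0.988 and rank 1405 of 11399, and the farthest was Xbp1, at 1.75 and rank 9841. Hspa5 stood at 1.33. When each library was set against its own group's mean, so that only the variation within groups counted, Pdia4 came nearest of the members at 0.748 and rank 329. The 5 genes nearest by that measure shared 0 with the first 5. These ranks describe the 16 libraries and carry no test.

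**Figure D4:**
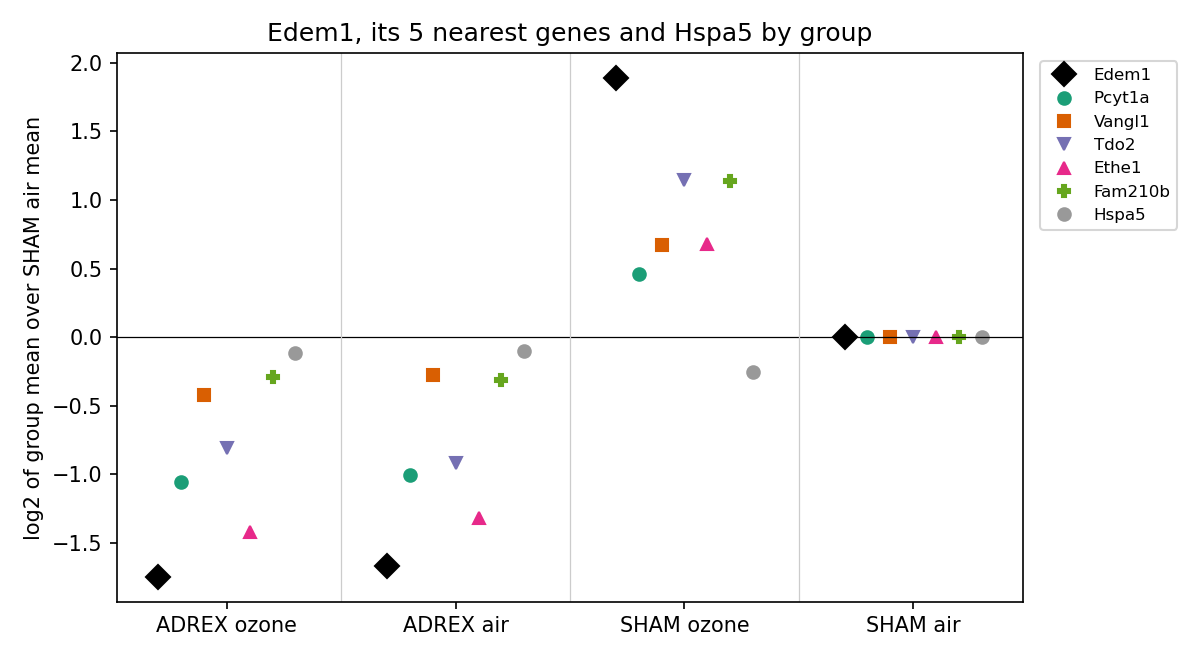
Group means as log2 of the ratio to the SHAM air mean (y axis) for Edem1, the 5 genes nearest to it and Hspa5, in the 4 groups (x axis). Edem1 had means of 2377 in ADREX ozone, 2515 in ADREX air, 29608 in SHAM ozone and 7991 in SHAM air. The 5 nearest genes, chosen for likeness to it over these libraries, share its order of SHAM above ADREX and SHAM ozone on top. Hspa5 stays near 0.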

How the data were processed

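The deposited signal values, for 22587 gene symbols in 16 libraries, are reads over a size factor, 1 per library, set by the authors. Partek, DESeq2 and the genome build rn6 are named per the submitters' processing notes. Tool versions, the aligner, the counting method and the gene models were not given in the sources used here. Division by each column's step recovered whole reads (100% of values within 0.01 of a whole number, largest deviation 0.000132). Totals were 8372891 to 14096246 reads, and 3 reads, the limit a count of 0 allows, were 0.213 to 0.358 RPM, which covers counting error only. No column was left out.

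Libraries were grouped by title. Values were taken as log2(value + 1), and 12791 genes with a mean of at least 14.7 (1 count per 1000000 of the median total) were tested two-sided by limma-trend (limma 3.58.1, R 4.3.3), with 4 group means over all 16 libraries. A call is an adjusted p under 0.05 (Benjamini-Hochberg, all genes tested). All adjusted p-values are from limma unless edgeR 4.0.16 or DESeq2 1.42.0, run on the recovered reads, is named. The procedure was tested on simulated data. Errors are SE for log2 changes and SD for means.

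The members and lists were chosen with earlier results of these data known. By a rule, all members were described in each library. From each pathway list, the 2 members of highest mean and up to 4 called members could be named with values, as could the 5 genes nearest to Edem1. Promoters came from RefSeq, GRCr8. Marker sums are RPM of recovered reads over cell type lists. Sums of other lists were 603 to 1542 RPM for Kupffer cells, 246 to 664 RPM for sinusoidal endothelial cells, 216 to 541 RPM for stellate cells and fibroblasts, 5.14 to 23.9 RPM for cholangiocytes, 6.69 to 27.7 RPM for plasma cells, 2.63 to 13.1 RPM for pancreatic acinar cells and 2.20 to 10.6 RPM for lymphocytes. Alternatives were a pseudocount of 10, other filters, TMM and median-of-ratios scaling, array weights, a fit to the compared groups alone, the neural marker sum as a covariate, omission of the 3 libraries richest in those markers or of each library in turn, edgeR and DESeq2. Those for the pathway genes were chosen after the data were seen.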

Additional observations from a re-analysis of the deposited data

Results flagged for a closer look

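Over the 40 sets of 4 libraries formed by 10 genes and 4 groups, 1 library stood apart from its group. Creld2 in SHAM ozone 19 was 200.2 normalized counts, and the nearest of the other SHAM ozone libraries was 153.4. The gap was 0.896 of the group's range, above Dixon's 95% critical value for 4 values. Chance gives such a gap in about 1 of 20 sets.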

How the results depend on the processing

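No paired analysis was possible because the replicate numbers differ between all 4 groups. The count of members called for ozone in SHAM was 0 to 1 over the fits that left out a library, and 1 with all libraries. For ADREX against SHAM in air it was 0 with the neural marker sum as a covariate and 0 to 1 over the fits without a library. For ADREX against SHAM under ozone, 0 of 9 were called. In the fit to the ozone groups alone 1 of 9 was called (Xbp1), against 11.4% of all genes. With array weights it was 1 of 9 (Herpud1), against 26.7% of all genes. Over the fits without a library it was 0 to 1 of 9, against 6.15% to 14.4% of all genes. The log2 change of Edem1 for ozone in ADREX turned positive with array weights (0.13), with the neural covariate (0.15), without ADREX air 67 (0.02) and without ADREX ozone 82 (0.20), and over the fits without a library it lay between −0.58 and 0.20. The causes were not tested. Edem1 under ozone lay between −4.18 and −3.40 over 27 alternatives, and the difference of the ozone effects between −2.49 and −1.71 over 26.

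The log2 change of Edem1 for ozone in SHAM lay between 1.67 and 2.30, and for ADREX in air between −1.95 and −1.27. Of the 35 other values of members, all under 0.5 in size, 0 were called in any alternative and 19 changed sign in at least 1. Over the alternatives, the count of all genes called was 0 to 570 for ozone in ADREX (16 by the limma fit reported), 38 to 1133 for ozone in SHAM (202), 194 to 1456 for ADREX in air (451), 479 to 3414 for ADREX under ozone (1601) and 3 to 248 for the difference (14). Low counts limit Ddit3.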
